A study of Rattus norvegicus with 15 samples.

Results

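The small leucine-rich matrix proteoglycans described here are decorin (Dcn), biglycan (Bgn), asporin (Aspn), lumican (Lum), fibromodulin (Fmod), prolargin (Prelp), osteomodulin (Omd) and osteoglycin (Ogn). They were taken by gene name, without regard to their values, and are 8 of the 22436 genes in the deposited expression table of rat prostate. All 8 passed the filter on low values (above 0.5 FPKM in at least 5 of 15 samples), although Fmod did so through the 5 Control samples alone. A gene admitted in that way had to be lower elsewhere, so comparisons with Control are counted over the genes that pass without the Control samples (above 0.5 FPKM in at least 5 of the 10 others), which are 7 of the 8 and 10559 of all 12490 tested. FPKM counts fragments per length of gene and per depth of library, so levels of different genes can be set beside each other.

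The series measured RNA from prostate tissue of SD rats in 15 samples, 5 each of 3 groups, to learn how low-intensity pulsed ultrasound acts in a rat model of chronic prostatitis with pelvic pain. The Control and Model samples received no treatment. The LIPUS samples were given the ultrasound for 4 weeks, at 1 W/cm2 by their titles and 1.5 W/cm2 by their treatment field, so the intensity is uncertain. How the model was made, the age of the rats and whether each sample is a separate animal are not given in the sources used here, so a p-value here speaks only of how far these samples scatter, which can be technical. Samples carry the numbers 6 to 10 in each group, and lists of values below follow that order.

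Small leucine-rich proteoglycans are secreted core proteins built from leucine-rich repeats, and most carry chondroitin, dermatan or keratan sulfate chains. They bind collagen fibrils, limit or guide their thickness and spacing, and bind growth factors such as TGF-beta. In glandular organs they are made mainly by the fibroblasts of the stroma between the glands. By sequence, decorin, biglycan and asporin form class I, lumican, fibromodulin, prolargin and osteomodulin class II, and osteoglycin belongs to class III.

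Several of the genes lie next to each other. In the order of the later rat assembly GRCr8, used for names and order only because the files were made on rn6, Dcn and Lum are neighbours on chromosome 7, Prelp and Fmod on chromosome 13, and Ogn, Omd and Aspn follow each other on chromosome 17, while Bgn is on chromosome X. The stretches around the starts of Ogn, Omd and Lum are shown because Ogn had the largest log2 change of the 8 between LIPUS and Model, Omd is its neighbour, and Lum held a smaller share of the 8 transcripts in LIPUS where Ogn held a larger one. Each stretch is from RefSeq on GRCr8, 5′ to 3′ on the gene's strand, with 250 bases before and 50 after the start. The RefSeq promoter table matched 5 of the 8 genes, these 3 with Fmod and Aspn. Capitals mark matches to 4 motifs searched on both strands: the TATA letters TATAAA, the AP-1 letters TGANTCA, the Smad letters CAGACA and the box CCAAT.
Ogn, chr17:15258946-15259245, minus strand: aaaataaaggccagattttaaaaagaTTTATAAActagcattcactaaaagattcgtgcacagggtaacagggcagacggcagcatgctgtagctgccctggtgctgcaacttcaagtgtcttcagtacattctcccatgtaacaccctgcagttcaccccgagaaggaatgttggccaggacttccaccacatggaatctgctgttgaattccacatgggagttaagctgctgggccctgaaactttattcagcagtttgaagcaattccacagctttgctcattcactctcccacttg
Omd, chr17:15274821-15275120, minus strand: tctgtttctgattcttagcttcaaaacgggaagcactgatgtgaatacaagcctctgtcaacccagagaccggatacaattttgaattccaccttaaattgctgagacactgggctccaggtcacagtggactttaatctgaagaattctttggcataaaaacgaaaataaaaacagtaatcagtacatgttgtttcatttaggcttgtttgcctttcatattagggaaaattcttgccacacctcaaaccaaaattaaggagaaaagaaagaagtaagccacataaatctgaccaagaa
Lum, chr7:34245456-34245755, plus strand: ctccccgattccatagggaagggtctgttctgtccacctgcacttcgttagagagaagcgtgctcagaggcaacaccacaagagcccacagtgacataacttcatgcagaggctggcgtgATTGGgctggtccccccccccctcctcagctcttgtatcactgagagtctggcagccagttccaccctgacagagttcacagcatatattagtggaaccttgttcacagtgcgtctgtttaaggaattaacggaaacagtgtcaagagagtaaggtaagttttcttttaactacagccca

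The Ogn stretch holds TATAAA on its own strand, 222 bases before the start, overlapping the same motif on the opposite strand at 224 bases before it. The Lum stretch holds CCAAT on the opposite strand, 130 bases before the start, and the Omd stretch holds none of the 4. Of all 33469 promoters of this length, 14.2% hold the first of these motifs, 7.33% the AP-1 letters, 21.1% the Smad letters and 37.5% the CCAAT box, so a match is common.

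The libraries held 29675962 to 36402094 reads, and the mitochondrially encoded genes took 4.23% ± 0.407 of the reads in Control, 34.9% ± 9.18 in Model and 59.6% ± 15.7 in LIPUS (mean ± SD, n = 5), with 83.3% in LIPUS 10. On the deposited scale, the median log2 change of all 12490 tested genes was -0.90 in Model against Control, -0.60 in LIPUS against Model and -1.48 in LIPUS against Control. Changes are therefore given on 2 scales, as deposited and after median-of-ratios scaling, in which each library is divided by 1 factor so that its typical gene matches the other libraries; the same medians were then -0.15, -0.02 and -0.15. Markers of the gland lobes also varied. As deposited, ventral lobe sums were higher in every Control library than in all others, while dorsolateral lobe sums overlapped between all groups. After scaling the ventral sums of LIPUS overlapped those of Control. The 3 ventral lobe secretory genes (Scgb1d2, Scgb1d4, Scgb2a1) summed to 134665 to 225577 FPKM in Control and 231 to 68182 FPKM in Model, and the dorsolateral genes Pbsn and Msmb to 3895 to 60207 FPKM in Control and 309 to 177705 FPKM in Model, while LIPUS lay at 3558 to 123630 FPKM and 2962 to 42864 FPKM of the same sums. Seminal vesicle genes, 6 in number, also varied widely within groups, with sums of 471 to 93599 FPKM in Control, 46.3 to 92825 FPKM in Model and 303 to 19709.5 FPKM in LIPUS. The part of lobe make-up, of seminal vesicle transcripts and of the mitochondrial share in the results was not tested. Model 7, with the Model group's highest ventral and lowest dorsolateral sum, and LIPUS 10 stand apart, so counts are also given without both.

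Dcn was the most abundant of the 8 in every library. The untreated prostate held 208, 316, 288, 206 and 271 FPKM of Dcn, against 95.3, 52.2, 62.1, 68.3 and 116 FPKM in Model and 79.1, 55.2, 163, 69.6 and 110 FPKM in LIPUS. As deposited, all Control libraries were above all others, and Model and LIPUS overlapped. After scaling, Dcn spanned 121 to 185 in Control, 44.9 to 109 in Model and 49.0 to 357 in LIPUS, so LIPUS overlapped Control. In Control, Lum (48.7 ± 9.11 FPKM), Bgn (41.8 ± 16.3 FPKM) and Ogn (41.1 ± 10.8 FPKM) followed with overlapping ranges, then Prelp (12.96 ± 5.13 FPKM), Aspn (7.74 ± 1.18 FPKM), Omd (5.44 ± 1.43 FPKM) and Fmod (2.23 ± 1.30 FPKM; SD, n = 5). The Control range of Dcn lay above all other genes, those of Lum, Bgn and Ogn above Prelp, and from Prelp down each gene overlapped the next. Summed over the 8 genes, Control held 418 ± 85.5 FPKM, Model 111 ± 37.2 FPKM and LIPUS 152 ± 68.6 FPKM as deposited. After scaling the sums were 241 ± 43.7, 111 ± 36.9 and 274 ± 193 in the same order. The scaled LIPUS range of 82.4 to 564 overlapped the 194 to 285 of Control and the 60.1 to 152 of Model. In bulk tissue, fewer fibroblasts and less RNA of these genes per fibroblast cannot be told apart.

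**Figure D1:**
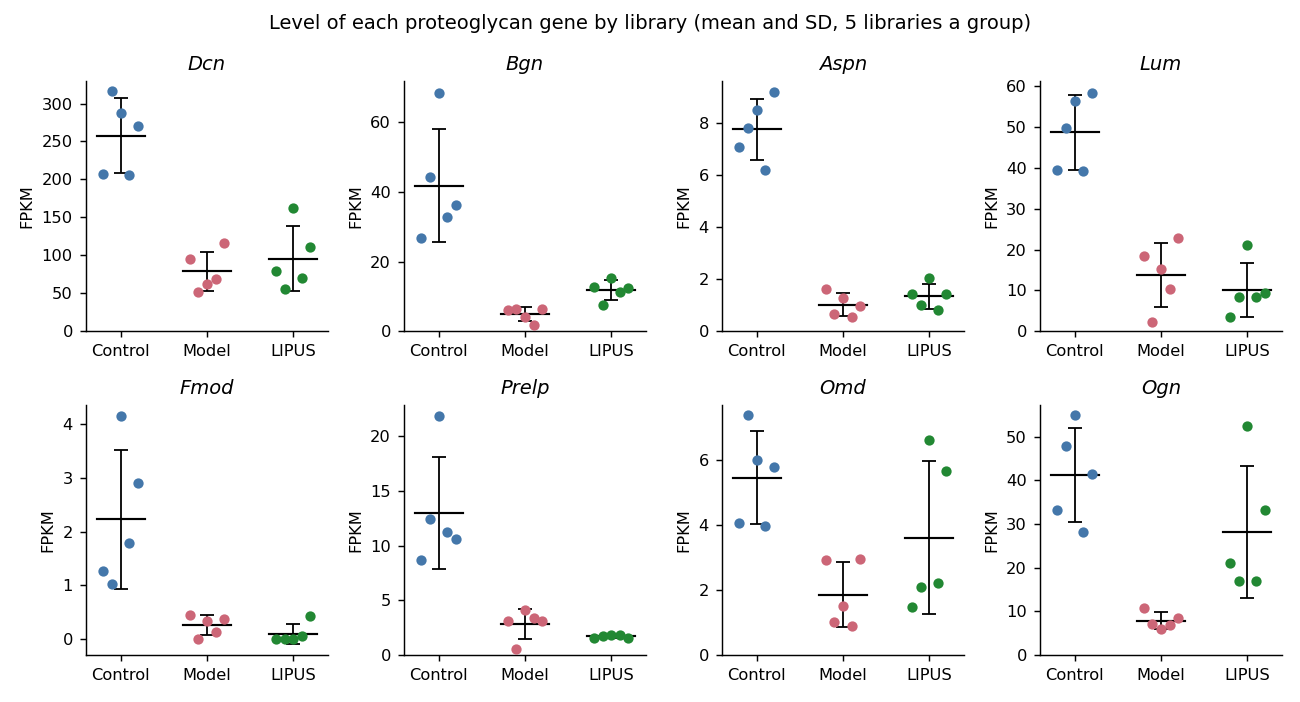
FPKM of each of the 8 genes by library, with 1 point per library and lines for the mean and SD of the 5 libraries of a group; each panel has its own axis. Every gene is lower in all Model libraries than in all Control libraries, though Fmod passed the filter through Control alone. Ogn and Bgn in LIPUS lie above all Model libraries.

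Compared with Control, the prostatitis model held less RNA of the 7 proteoglycans that pass the filter without Control, from 3.08-fold (Omd) to 8.57-fold (Bgn) lower in the fit. All 7 were called lower at an adjusted p under 0.05 (limma on log2(FPKM + 0.1), Benjamini-Hochberg over 12490 genes), where 38.3% of the genes passing in that way and 43.1% of all tested genes were. All 7 had groups that did not overlap, where 37.9% of such genes and 41.4% of all tested genes did. Their median log2 change was -2.33 beside -0.77 for such genes. After scaling, 4 of the 7 were called lower (Bgn, Aspn, Ogn and Prelp; 16.2% of such genes, 20.2% of all tested), 6 did not overlap (14.1% of such genes, 18.3% of all tested), and the median was -1.55 beside -0.0115. Quantile normalization and scaling to nuclear reads called Dcn and Lum as well as these 4.

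In class I, Bgn and Aspn were lower on both scales and Dcn on the deposited scale. Bgn, which binds collagen and TGF-beta and whose soluble form engages Toll-like receptors, was at 26.7, 44.4, 68.5, 32.8 and 36.4 FPKM in Control and at 5.95, 6.28, 4.10, 1.91 and 6.42 FPKM in Model. The highest Model library thus lay far below the lowest Control library, and the log2 change was -3.10 (SE 0.352, adjusted p 5.22e-06; scaled -2.32, adjusted p 0.000522). Aspn, a TGF-beta-binding relative of decorin with an aspartate-rich end, spanned 6.18 to 9.17 FPKM in Control and 0.558 to 1.61 FPKM in Model. Its log2 change was -2.89 (SE 0.331, adjusted p 5.62e-06; scaled -2.12, adjusted p 0.000848). Dcn, which coats collagen fibrils and sequesters TGF-beta, had a log2 change of -1.75 (SE 0.310, adjusted p 0.00032), and its scaled change of -0.97 did not pass the test (adjusted p 0.0803), although it did without LIPUS 7 or LIPUS 10 (adjusted p as low as 0.0309).

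Class II genes fell as well. Lum, a keratan sulfate proteoglycan that spaces collagen fibrils, was at 39.6, 49.8, 56.5, 39.2 and 58.5 FPKM in Control and at 18.4, 2.19, 15.2, 10.2 and 22.8 FPKM in Model. Model 7 was lowest, and the log2 change was -2.14 (SE 0.533, adjusted p 0.00392; scaled -1.36, adjusted p 0.0904). Prelp, which binds collagen and heparan sulfate at basement membranes, was at 8.69, 12.4, 21.8, 11.3 and 10.6 FPKM in Control and at 3.12, 0.512, 4.12, 3.33 and 3.08 FPKM in Model. Its groups were apart with or without Model 7, and its log2 change was -2.33 (SE 0.437, adjusted p 0.000503; scaled -1.55, adjusted p 0.0221, but 0.0597 without Control 8). Fmod, which helps collagen fibrils mature, was at 1.27, 1.014, 4.16, 1.78 and 2.91 FPKM in Control and at 0.449, 0, 0.330, 0.122 and 0.365 FPKM in Model. It rests on 1134 reads in all of Control and 129 in all of Model. The fitted log2 change of -2.78 (SE 0.574, adjusted p 0.00108; scaled -2.02, adjusted p 0.0394) depends on the 0.1 added before the logarithm, and after scaling the call was lost without Control 6, 8, 9 or 10 or Model 7, 9 or 10 (adjusted p up to 0.0951) and under quantile normalization (adjusted p 0.0898). Since Control alone brought Fmod past the filter, its test lends no weight to the direction. Omd, known from the mineralised matrix of bone, spanned 3.98 to 7.37 FPKM in Control and 0.899 to 2.95 FPKM in Model, with a log2 change of -1.62 (SE 0.442, adjusted p 0.00701; scaled -0.86, adjusted p 0.237).

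Ogn, a small class III proteoglycan also called mimecan that regulates collagen fibril thickness, was at 33.2, 48.0, 54.9, 28.2 and 41.5 FPKM in Control and at 10.8, 7.06, 5.83, 6.91 and 8.45 FPKM in Model. The Model values lay close together, below every Control library. The log2 change was -2.37 (SE 0.327, adjusted p 3.34e-05; scaled -1.59, adjusted p 0.00812).

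**Figure D2:**
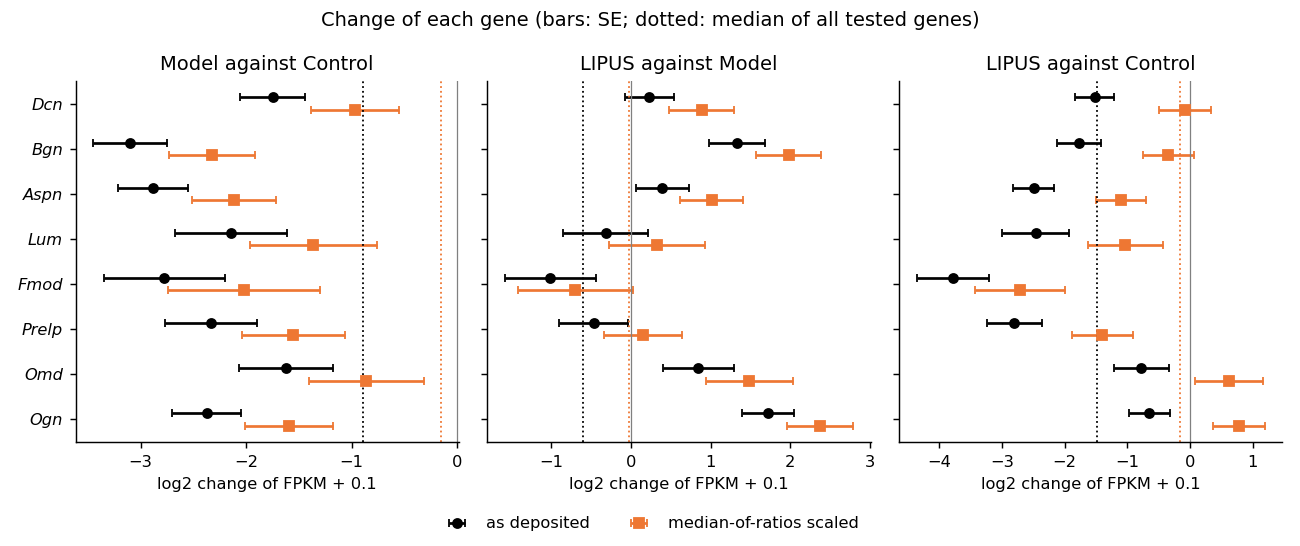
Log2 change of FPKM + 0.1 for each gene in the 3 comparisons, as deposited (circles) and after median-of-ratios scaling (squares), with bars for the SE and dotted lines at the median of all tested genes on each scale. In Model against Control every gene lies left of the median of its scale, though for Fmod, admitted through Control alone, this lends no weight. In LIPUS against Model, Ogn and Bgn lie farthest right.

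The LIPUS samples differed from the Model samples in 2 of the 8 genes, both higher. Ogn was at 21.0, 16.9, 52.5, 17.0 and 33.1 FPKM in LIPUS, above every Model library, with a log2 change of 1.72 (SE 0.327, adjusted p 0.0234; scaled 2.37, adjusted p 0.0103), a fitted rise of 3.29-fold. Bgn was at 12.7, 7.53, 15.2, 11.2 and 12.4 FPKM in LIPUS, also above every Model library, with a log2 change of 1.33 (SE 0.352, adjusted p 0.0293; scaled 1.98, adjusted p 0.0209), or 2.51-fold. Of all tested genes, 1.31% were called higher and 0.536% lay wholly above Model; after scaling the same 2 members were called, with backgrounds of 2.73% and 1.63%.

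Both calls rest on the spread pooled over all 3 groups. With the spread from the 2 groups compared alone, neither passed (adjusted p 0.143 each, the 2 members with an unadjusted p under 0.05), and the call of Ogn was lost without Model 8, Model 9, Model 10 or LIPUS 6 (adjusted p 0.0510 to 0.0731) and that of Bgn without Model 6, Model 8, Model 9, Model 10 or LIPUS 6 (adjusted p 0.0509 to 0.0767), while their log2 changes stayed between 1.46 and 1.86 for Ogn and between 1.03 and 1.48 for Bgn. After scaling, Ogn was called in 15 of 15 fits that left out 1 library and Bgn in 13 of 15 (not without Model 8 or Model 9), but with only the 2 groups compared limma called 0 members, with 3 (Ogn, Bgn and Omd) at an unadjusted p under 0.05. The same limit holds for the other genes given below between LIPUS and Model. Over all pathway and marker lists and Cenpp, 16 genes outside the 8 were called as deposited. With the 2 groups alone limma called 0 of them (adjusted p 0.143 or more, all 16 at an unadjusted p under 0.05), and each was called in 1 to 13 of 15 fits that left out 1 library. After scaling 15 were called, of which limma called 0 with the 2 groups alone (adjusted p 0.0514 or more, all 15 at an unadjusted p under 0.05), and each was called in 3 to 15 of the 15 fits.

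The other 6 genes did not pass the test between LIPUS and Model. Dcn changed by 0.23 on the log2 scale (SE 0.310, adjusted p 0.596; scaled 0.89, adjusted p 0.193), Aspn by 0.39 (SE 0.331, adjusted p 0.386; scaled 1.014, adjusted p 0.129) and Omd by 0.85 (SE 0.442, adjusted p 0.166; scaled 1.49, adjusted p 0.110). The LIPUS values of Omd were 1.49, 2.10, 6.62, 2.20 and 5.65 FPKM, with LIPUS 8 and LIPUS 10 above and the other 3 within the Model range. Lum was at 3.52, 8.26, 21.2, 8.33 and 9.31 FPKM in LIPUS, and its change was -0.32 as deposited (SE 0.533, adjusted p 0.680) and 0.33 after scaling (adjusted p 0.751). Prelp was narrow in LIPUS, at 1.53, 1.76, 1.80, 1.78 and 1.55 FPKM, and its change was -0.47 as deposited (SE 0.437, adjusted p 0.437) and 0.15 after scaling (adjusted p 0.861). Every LIPUS value of Prelp lay below 4 of the 5 Model values, and without Model 7 Prelp was called lower as deposited (log2 change -0.97, adjusted p 0.0167). Fmod was listed at 0 in LIPUS 6, 7 and 8 and stood at 0.0415 FPKM in LIPUS 9 and 0.422 FPKM in LIPUS 10, from 46 reads in the group, with a log2 change of -1.01 (SE 0.574, adjusted p 0.201; scaled -0.70, adjusted p 0.556). By counting error alone, a value of 0 leaves room for 3 reads, or 0.0304 to 0.0343 FPKM at the length of Fmod in these 3 libraries. Without Model 7 and LIPUS 10, 4 genes were called as deposited, Ogn and Bgn higher and Fmod and Prelp lower. That fit was chosen after seeing the data, and after scaling it called 3 genes, with Prelp lost. Lower calls were common without Model 7 alone, at 3492 of all tested genes as deposited, beside 1657 in the main fit. The share of all tested genes called without both libraries is not given here.

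Against Control, which shares its samples with the first comparison, 5 of the 7 genes that pass the filter without Control were lower in LIPUS, at adjusted p from 1.95e-05 (Aspn, log2 change -2.49) to 0.00086 (Lum, -2.46). These 5 are 71.4% of the 7, beside 73.3% called lower of such genes and 74.4% of all tested, which says nothing particular of the proteoglycans. The 2 that did not pass were Ogn, with a log2 change of -0.65 as deposited (SE 0.327, adjusted p 0.0771) and 0.78 after scaling (adjusted p 0.189), and Omd, with -0.78 (SE 0.442, adjusted p 0.116) and 0.63 (adjusted p 0.430). Both overlapped Control, whereas the other 5 did not, beside 58.3% of such genes and 59.4% of all tested. After scaling Prelp alone of the 7 was called lower (-1.40, adjusted p 0.0462), with a background of 10.7% of such genes and 14.3% of all tested, and Prelp was the only one without overlap (12.7% and 15.3%). Fmod, admitted through Control, had a scaled change of -2.72 (adjusted p 0.0121). Scaled Dcn changed by -0.08 (SE 0.413, adjusted p 0.905) and scaled Bgn by -0.34 (SE 0.409, adjusted p 0.577). Without LIPUS 8, Omd (-1.05, adjusted p 0.0411) and Ogn (-0.92, adjusted p 0.0135) were called lower as deposited, and the scaled call of Prelp held in 3 of 15 fits that left out 1 library (adjusted p up to 0.114, without Control 8). Without LIPUS 7, scaled Ogn was called, higher than Control (adjusted p 0.0374).

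The make-up of the 8 transcripts within a library does not move with any factor common to a library's genes. As a share of their summed FPKM, Dcn made up 61.9% ± 3.12 in Control libraries, 71.0% ± 3.73 in Model libraries and 62.6% ± 2.17 in LIPUS libraries, and the Model range of 65.8% to 74.6% lay above every library of the other groups. Ogn made up 8.56% to 10.8% in Control, 5.26% to 10.1% in Model and 15.3% to 20.03% in LIPUS. The LIPUS range of Ogn overlapped neither of the others, and its mean of 17.99% ± 1.79 compares with 9.77% ± 0.82 in Control and 7.36% ± 1.84 in Model. Lum went the other way, at 10.2% to 13.4% in Control and 2.91% to 8.91% in LIPUS, without overlap, with Model spread over both at 3.13% to 16.0%. Aspn held 1.88% ± 0.248 of the Control sum, 0.940% ± 0.342 of the Model sum and 0.918% ± 0.198 of the LIPUS sum, both later groups below every Control library. Bgn held a mean of 9.81% in the Control libraries, 4.74% in those of Model and 8.33% in those of LIPUS, and the ranges overlapped. These shares carry no test.

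**Figure D3:**
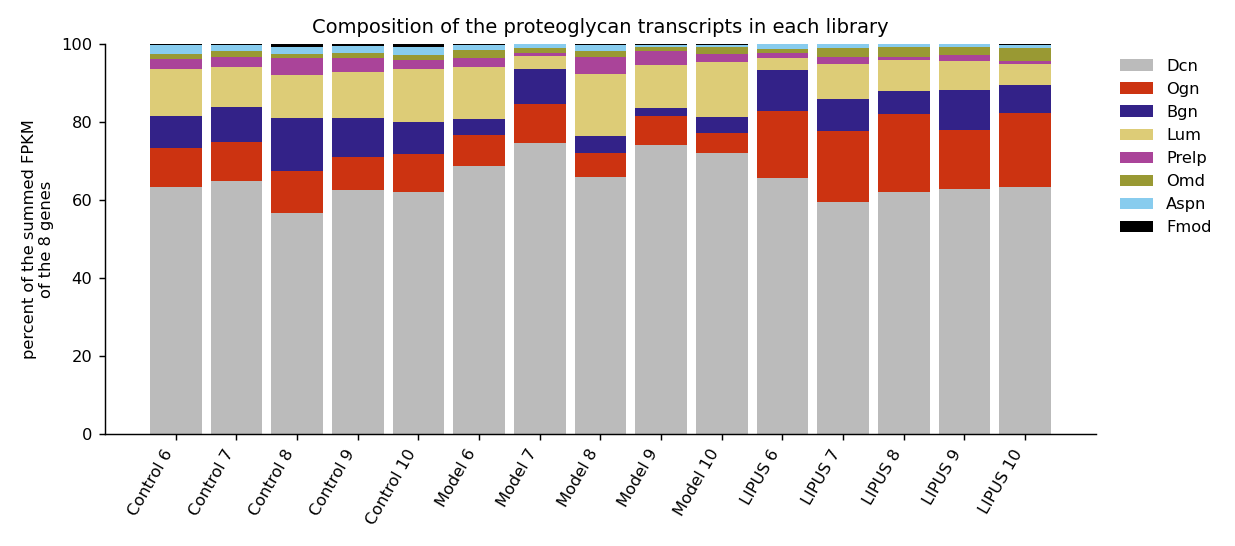
Share of each of the 8 genes in their summed FPKM, 1 stacked bar per library, in percent. Dcn fills most of every bar, and the Ogn segment is larger in the 5 LIPUS bars (15.3% to 20.03%) than in any other (5.26% to 10.8%).

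Ratios between genes of 1 library show the same from another side. Ogn over Dcn was 0.160, 0.152, 0.190, 0.137 and 0.153 in Control, 0.114, 0.135, 0.0938, 0.101 and 0.0730 in Model and 0.266, 0.306, 0.323, 0.244 and 0.29997 in LIPUS. The groups were apart in all 3 pairings: Model lowest, Control between, LIPUS highest. Ogn over Prelp had a mean of 3.32 in Control (2.50 to 3.92), 4.70 in Model (1.42 to 13.8, the last being Model 7) and 16.7 in LIPUS (9.52 to 29.1).

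The proteoglycans and the collagens they bind fell by different amounts. Dcn over Col1a1, the gene of the main chain of type I collagen, was 1.05 to 1.82 in Control, 30.7 to 68.4 in Model and 16.8 to 51.9 in LIPUS. Col1a1 itself had 177 ± 63.1 FPKM in the Control libraries, 1.89 ± 1.14 in the Model libraries and 3.62 ± 0.886 in the LIPUS libraries, and Col3a1, of type III collagen, at 313 ± 91.4, 7.35 ± 2.85 and 11.2 ± 2.59 FPKM. Of the list of fibril and microfibril partners, 13 were tested and 10 of these pass the filter without Control. All 10 were called lower in Model on both scales, beside 38.3% of all such genes as deposited and 16.2% after scaling. Their median log2 change was -4.08. The 10 include Col1a1 (-6.61, adjusted p 1.24e-08), Col3a1 (-5.45, adjusted p 1.45e-08), Col6a1 (-4.73, adjusted p 1.58e-07) and Col6a2 (-4.34, adjusted p 1.58e-07). None of the 13 was called between LIPUS and Model in limma at an adjusted p under 0.05; 2 had an unadjusted p under 0.05, Col1a1 (log2 change 1.07, adjusted p 0.0611) and Col3a1 (0.68, adjusted p 0.131), and limma-voom on recovered reads called 0.

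**Figure D4:**
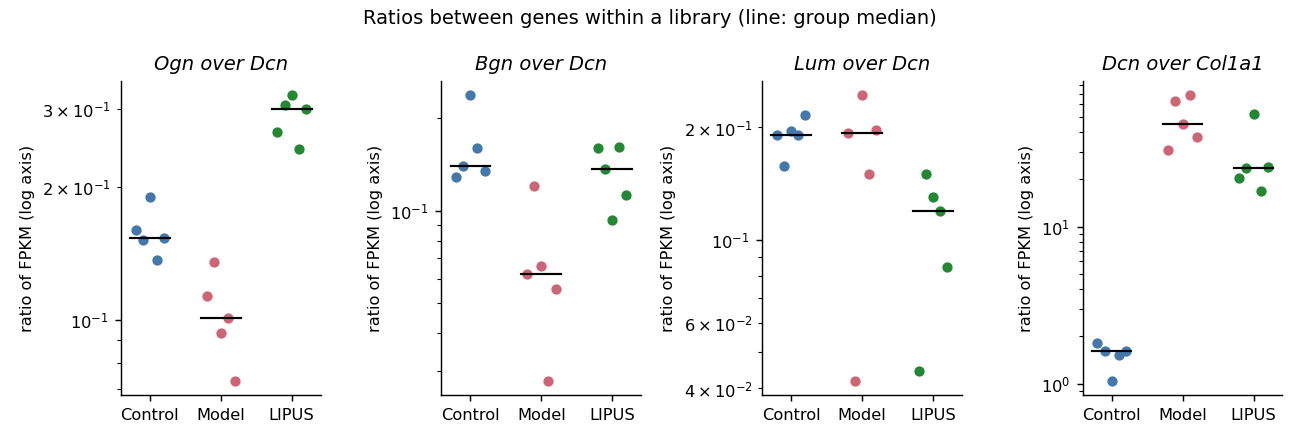
FPKM ratios between 2 genes of the same library on log axes, 1 point per library with the group median as a line. Ogn over Dcn separates all 3 groups, and Dcn over Col1a1 is at 1.05 to 1.82 in Control and at 16.8 or more in every other library.

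Markers of fibroblasts moved with the proteoglycans. The 18 markers, none of them a member, gave sums from 294 to 507 FPKM for Control, from 58.9 to 139 FPKM for Model and from 69.6 to 183 FPKM for LIPUS. Of the 14 that pass the filter without Control, 14 were called lower in Model against Control, beside 38.3% of all such genes. After scaling 9 of the 14 were, beside 16.2%. Of all 18, limma called 0 between LIPUS and Model on either scale, with 3 at an unadjusted p under 0.05 (7 after scaling) and 0 called by limma-voom. Relative to the marker sum, the 8 proteoglycans together came to 112% ± 11.8 for Control, 120% ± 29.3 for Model and 129% ± 14.9 for LIPUS, and these ranges overlapped. The largest markers of that sum in each group were Dpt (64.4, 30.1 and 43.6 FPKM in Control, Model and LIPUS) and Igfbp6 (46.9, 24.0 and 27.1 FPKM). Dcn weighs most among the 8. The 14 markers had a median log2 change of -2.55 in Model against Control, so the ratio does not show that each marker fell as the 8 did. Ogn alone was at 8.67% to 12.4% of the fibroblast sum in Control, 5.28% to 11.9% in Model and 16.5% to 28.7% in LIPUS, the last above all others. Bgn was at 10.9% ± 1.70, 5.50% ± 2.98 and 10.6% ± 1.57, and Aspn at 1.68% to 2.59% in Control, above the 0.844% to 1.17% of Model and the 0.784% to 1.43% of LIPUS.

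Other cell types moved too, and their part in these results was not tested. For basal epithelium (3), Schwann cells (3), adipocytes (3) and mast cells (2), all markers passing the filter without Control were called lower in Model. After scaling 2, 1, 3 and 2 of these were, beside 16.2% of all such genes and 38.3% as deposited. As deposited, 3 of 3 ventral lobe, 6 of 8 smooth muscle, 2 of 3 endothelial and 1 of 3 lymphocyte markers were called lower. Skeletal muscle had 1 of 3, and dorsolateral lobe and seminal vesicle markers had 0. Macrophage markers, 8 in number and all detected, had summed levels of 62.7 ± 10.0 FPKM (Control), 58.6 ± 17.8 FPKM (Model) and 115 ± 17.7 FPKM (LIPUS). C1qa led that sum, with means of 20.1, 24.2 and 43.8 FPKM, while Csf1r had 4.67, 0.967 and 3.26 FPKM. In Model against Control 3 of the 8 were called lower and 0 higher, a share of 37.5% beside 38.3% of all genes that pass the filter without Control. In LIPUS against Model 5 of the 8 were called higher, beside 1.31% of all tested genes. None of the 5 was called with the 2 groups alone (adjusted p 0.143 to 0.164), and each was called in 3 to 11 of 15 fits that left out 1 library. The 9 smooth muscle markers gave sums of 1080 to 2977 FPKM (Control), 86.2 to 727 FPKM (Model) and 213 to 345 FPKM (LIPUS). Bone and cartilage markers, which matter because osteomodulin and osteoglycin are also made in bone, summed to at most 0.198 FPKM in Control and 0.863 FPKM in Model, and all 5 in the table were listed at 0 in every LIPUS library. Endothelial markers summed to a mean of 31.6 FPKM (Control), 8.44 FPKM (Model) and 2.28 FPKM (LIPUS), and adipocyte markers to 125, 4.64 and 9.15 FPKM.

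The neighbours of Ogn on chromosome 17 were looked at because no source used here gives the strand of the libraries, and Ogn, Omd, Aspn and Ecm2 lie inside the span of Cenpp, a centromere protein gene on the opposite strand. Where exons of such a pair overlap, their reads cannot be told apart if the counting ignored strand. Whether exons overlap here was not examined. Cenpp had 434 reads in Control, 594 in Model and 167 in LIPUS, against 20011, 3742 and 12468 of Ogn, and it was lower in LIPUS than in Model (log2 change -2.54, SE 0.719, adjusted p 0.0338; scaled -2.38, adjusted p 0.0809). Ecm2, another leucine-rich matrix protein gene, had 2.02 ± 0.679 FPKM in the Control libraries, 0.415 ± 0.0688 FPKM in the Model libraries and 1.27 ± 0.596 FPKM in the LIPUS libraries. Like Ogn it was called lower in Model against Control (log2 change -1.99, adjusted p 0.000351; scaled -1.26, adjusted p 0.0488) and higher in LIPUS against Model (1.30, adjusted p 0.0319; scaled 1.93, adjusted p 0.0371), though the second call was not made by limma-voom on recovered reads and after scaling held in 3 of 15 fits that left out 1 library.

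Of the 10 other family genes in the table, 7 stayed below the filter. Among these, Kera (keratocan, known from the cornea), next to Lum, ranged from 0.336 to 7.50 FPKM within Control. The 3 tested were Ecm2, Podn (podocan) and Tsku (tsukushi). Ecm2 and Tsku (log2 change -2.55, adjusted p 0.000424) were called lower in Model. Podn passed the filter through Control alone, at 1.05 FPKM or more there, at most 0.256 FPKM in Model and at most 0.409 FPKM in LIPUS, so its lower level there was set by the filter. Only Ecm2 was called between LIPUS and Model.

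The enzymes that build the sugar chains gave a mixed picture. Of 14 genes of chondroitin and dermatan sulfate synthesis that pass the filter without Control, 5 were called lower in Model against Control, a share of 35.7% beside 38.3% of all such genes, with a median log2 change of -0.98; after scaling 2 were lower and 2 higher, the latter being B3gat3 (scaled log2 change 1.36, adjusted p 0.0151), which finishes the linkage sugar, and Papss2 (1.999, adjusted p 0.0112), which makes the sulfate donor. In LIPUS against Model, Papss2 (-2.21, adjusted p 0.0305), B3gat3 (-1.59, adjusted p 0.0352) and Fam20b (-1.35, adjusted p 0.0440), a kinase of the linkage sugar, were called lower as deposited, in 2 to 9 of 15 fits that left out 1 library, and none after scaling. These are 3 of 16 tested (18.75%), beside 1657 of all 12490 tested genes called lower, which says nothing particular of the list. Of 5 tested keratan sulfate genes, 4 pass the filter without Control, with a median log2 change of -1.07 in Model against Control. Of the 4, 2 were called lower, beside 38.3% of all such genes. These were B4galt1, a galactosyltransferase (-4.56, adjusted p 6.25e-07), and B4galt4 (-1.60, adjusted p 0.0255). After scaling B4galt1 alone of the 5 was called lower in Model, and it was called higher in LIPUS against Model (scaled log2 change 1.82, adjusted p 0.0193).

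Of a list of proteases that process or cleave these proteins, with enhancers such as Pcolce that are not proteases, 6 genes were tested of 14 listed. Of the 6, 3 (Bmp1, Adamts1 and Adamts5) passed the filter through Control. The other 3 were called lower in Model on both scales (median log2 change -3.12). Of all genes that pass without Control, 38.3% were as deposited and 16.2% after scaling. Among the 3 were Mmp2 (-3.12, adjusted p 4.46e-06) and the procollagen proteinase enhancer Pcolce (-2.58, adjusted p 2.99e-05). Adamts1 stood at 3.01 FPKM or more in Control and at most 0.259 FPKM in Model, and Adamts5 at 1.10 FPKM or more and at most 0.154 FPKM. Of 5 growth factors that the proteoglycans bind and that pass the filter without Control, Igf1 (-1.35, adjusted p 0.00183), Tgfb3 (-1.30, adjusted p 0.00649) and Tgfb1 (-1.45, adjusted p 0.0153) were called lower in Model (median -1.30). These are 3 of 5 genes, beside 38.3% of all such genes, which says nothing particular of the list. After scaling limma called 0 of all 6 tested and 0 had an unadjusted p under 0.05, while limma-voom on the unscaled reads called 3. Of 16 tested receptors, 11 pass the filter without Control, and 8 of these were called lower in Model, beside 38.3% of all such genes. After scaling 6 of the 11 were, beside 16.2%. The median log2 change of the 11 was -1.96 as deposited. The 8 include the Wnt co-receptor Lrp6 (-3.45, adjusted p 1.58e-07), the TGF-beta receptor Tgfbr2 (-2.61, adjusted p 5.22e-06), the endotoxin co-receptor Cd14 (-1.96, adjusted p 6.00e-05) and the scavenger receptor Lrp1 (-2.46, adjusted p 6.90e-05). Between LIPUS and Model the VEGF receptor Kdr was called lower (-1.71, adjusted p 0.0344, but in 8 of 15 fits that left out 1 library), and after scaling Tlr4, a receptor of soluble biglycan, was called higher (1.67, adjusted p 0.0164) and Kdr was not called (adjusted p 0.0515). Both genes passed the filter through Control. Kdr had means of 0.353 FPKM in Model and 0.0203 FPKM in LIPUS, with 4 LIPUS libraries at 0. Its log2 change therefore depends on the 0.1 added before the logarithm. Tlr4 reached at most 0.479 FPKM in Model and 1.05 FPKM in LIPUS. Other proteoglycans, such as syndecans and glypicans, numbered 16 tested, of which 11 pass the filter without Control. Of these, 10 were called lower in Model, among them Sdc2 (-2.72, adjusted p 2.66e-06), beside 38.3% of all such genes. After scaling 4 of the 11 were, beside 16.2%. The median log2 change of the 11 was -2.16 as deposited. Gpc6, Gpc3 and the chondroitin sulfate proteoglycan Vcan passed through Control; Gpc6 stood at 1.52 FPKM or more in Control and at most 0.256 FPKM in Model, Gpc3 at 5.77 FPKM or more and at most 0.820 FPKM, and Vcan at 0.901 FPKM or more and at most 0.167 FPKM.

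**Figure D5:**
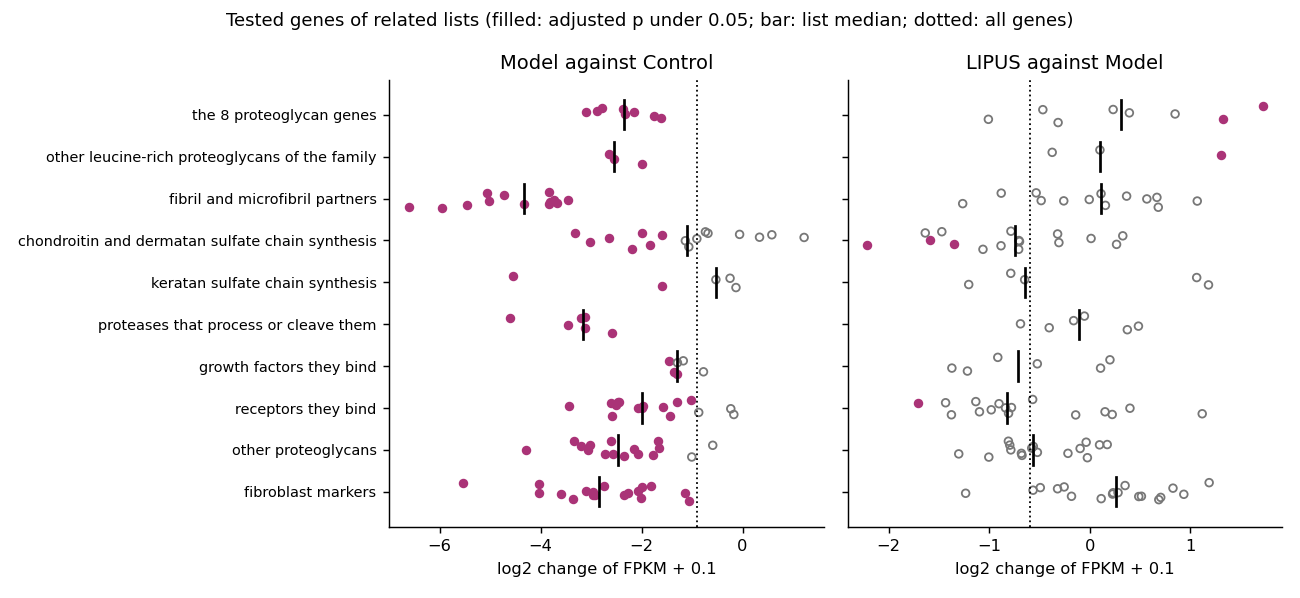
Log2 change of FPKM + 0.1 of every tested gene in the member list and 9 related lists, with filled points at an adjusted p under 0.05, a bar at each list's median and a dotted line at the median of all tested genes. The partners of collagen fibrils lie farthest left in Model against Control (median -4.34 over all 13 tested, of which 3 passed the filter through Control), and few points are filled in LIPUS against Model.

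Across the 15 libraries, the 8 genes did not all vary alike. On scaled log2 values, Pearson's r was highest for Dcn with Omd (0.904), Omd with Ogn (0.886) and Bgn with Aspn (0.864), was 0.858 for Lum with Prelp, and was lowest for Fmod with Ogn (0.192). These values describe libraries that share their group differences and scaling factors, and carry no p. Of the members, Dcn lay nearest to the mean profile of the 8 (r = 0.932). The tested genes outside the list nearest to that mean were Palld (0.959), Dmpk (0.958), Ccdc80 (0.955), Pcolce (0.933), C1s (0.931), Eml1 (0.925), Entpd1 (0.923) and Tubb5 (0.923). The nearest gene to each member was Plscr4 for Dcn (0.938), Lbh for Bgn (0.963), Ccdc80 for Aspn (0.956), Plpp1 for Lum (0.960), Pgap1 for Fmod (0.940), Serpinh1 for Prelp (0.978), Igfbp6 for Omd (0.934) and Ecm2 for Ogn (0.955). Ecm2 is the gene described above from the same stretch of chromosome 17 as Ogn.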

How the data were processed

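RNA-seq of prostate tissue was measured in 15 samples of SD rats. The authors deposited 1 table of FPKM per gene and sample, 22436 genes in all, and gene names are those of that table. The submitters' processing notes name fastp, HISAT2, HTSeq, SAMtools, DESeq2 and R 3.2.0 with the genome build rn6, without role or order. Whether the counting used strand is not given in the sources used here. The proteoglycan genes and the gene lists were chosen with earlier results of these data known.

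Reads per gene were recovered from the FPKM by finding a length and a library size that make all values of a gene whole numbers; all 22436 genes did so within 0.001. They served for depth and for limma-voom. A gene with no reads was given a limit of 3 reads.

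FPKM was turned into log2(FPKM + 0.1), so fold changes of low genes are understated. Genes above 0.5 FPKM in at least 5 of 15 samples (12490) were fitted with limma 3.58.1 in R 4.3.3 (empirical Bayes with an intensity trend), all 15 samples in 1 fit with 1 mean per group, and p-values were adjusted by Benjamini-Hochberg over all genes tested. The threshold for a call was an adjusted p of 0.05. The comparisons share samples pairwise. Scaled values are FPKM divided by median-of-ratios factors from 10313 genes above 0 in every library, fitted in the same way; relative shares of the members need no scaling. The procedures were tested on simulated data. Named genes were the 8 members, up to 4 genes with the smallest p in Model against Control of each list (and any singled out by a small count), up to 2 of each marker list, and the most similar genes by Pearson's r over the 15 samples on scaled log2 values. Tnxb, Chst13, Pcolce2 and Matn1 had no match by name. Counting only genes that pass the filter without the Control samples was chosen after seeing the data. Alternatives were other scalings, pseudocounts, filters, the 2 groups alone, limma-voom, a block for the replicate number and each sample left out; those without Model 7 and LIPUS 10 and those run on scaled values with samples left out, the 2 groups alone or the block were chosen after seeing the data. Same-numbered samples did not deviate together (r from -0.420 to 0.252), so the numbers were not used as pairs.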

Additional observations from a re-analysis of the deposited data

Results flagged for a closer look

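Each member was examined for a library far from the others of its group, 24 sets of 5 in all, of which chance marks about 1 in 20. Prelp in Model 7 stood at 0.512 FPKM, while the other Model libraries held 3.08 to 4.12 FPKM; the gap to the nearest was 0.854 of the whole range, above the limit of 0.71. Fmod in LIPUS 10 stood at 0.422 FPKM, while the other LIPUS libraries held 0 to 0.0415 FPKM, a gap of 0.790 of the range. LIPUS 10 also had the highest mitochondrial share of reads, 83.3%, and its part in the Fmod value was not tested.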

How the results depend on the processing

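Counts against Control in this section include Fmod, which passed the filter through Control alone, so its calls lend no weight. Among genes that pass without Control, 7 members were called in the main fit of Model against Control and 4 after median-of-ratios scaling. With Fmod, the count of members called in Model against Control was 8 in each fit that left out 1 sample. It was 6 under quantile normalization (Fmod and Omd lost), 7 under scaling to nuclear reads (Omd lost) and 5 after median-of-ratios scaling (Dcn, Lum and Omd lost). After that scaling the count stayed at 5 with the replicate block or without Model 7 and LIPUS 10, and was 3 to 6 in fits without 1 sample. In LIPUS against Model it was 2, but 0 with only the 2 groups compared and 0 with scaling and only the 2 groups. It was also 0 with the replicate block (adjusted p 0.0600 for Ogn and Bgn each, 2 members at an unadjusted p under 0.05). Without Model 7 and LIPUS 10 it was 4, or 3 after scaling (Prelp lost). Leaving out 1 sample gave 0 to 3, after scaling 1 to 3. In LIPUS against Control the count was 6, or 5 among genes that pass without Control. It was 2 (Fmod and Prelp) under median-of-ratios, quantile or nuclear-read scaling and 3 (Aspn, Fmod and Prelp) with scaling plus the block or only the 2 groups. Leaving out 1 sample gave 6 to 8, after scaling 1 to 3. Fmod was called in 15 of 15 of these scaled fits, often as the only member. Over all genes, calls went from 5750 to 3379 under the stricter filter in Model against Control (4889 to 6979 without 1 sample). In LIPUS against Model they went from 1820 to 527, 479 and 315 under the 3 scalings, 812 without a filter, 3 with only the 2 groups and 3 with the block (8 to 4576 without 1 sample). In LIPUS against Control they went from 9415 to 3230, 3264 and 2809 (8655 to 10108 without 1 sample). Under median-of-ratios, quantile and nuclear-read scaling in that order, the sign turned for Lum (0.33, 0.29, 0.47) and Prelp (0.15, 0.0321, 0.31) in LIPUS against Model, and for Omd (0.63, 0.78, 0.56) and Ogn (0.78, 0.46, 0.70) in LIPUS against Control; none of these passed the test on either side. Leaving out 1 sample moved Lum in LIPUS against Model between -0.88 and 0.0026, the last without LIPUS 6. Pseudocounts of 0.01 and 1 and limma-voom left the 3 member counts unchanged. The cause of each change was not tested. Depth limits only Fmod, with 46 reads in LIPUS.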
